A study of Mus musculus with 20 samples.

Results

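Blood taken 20 days after the injection of tumour cells was compared with blood taken from the same mice on day 0, before the injection. The comparison used the 8 arrays of 20 in the series whose titles name day 0 or day 20, 4 arrays for each day, matched by the mouse numbers 305, 310, 315 and 320. The mice were female C57Bl/6 animals that received Hepa1-6, a mouse hepatoma cell line, under the skin, and each was bled on both days. By the protocol in the labels day 0 blood was drawn before the cells were given, although the tissue label reads alike for every day, and the samples of both days were whole blood of the same strain. Each sample was labelled with Cy5 and hybridised beside a common reference, RNA from the blood of untreated C57Bl/6 mice labelled with Cy3, so each value is a log2 ratio of sample over reference and each change is a difference of such ratios. The labels name no group of mice that were bled on the same days without receiving tumour cells, so days of bleeding, ageing and tumour growth cannot be told apart.

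Whole blood holds RNA of neutrophils, monocytes, lymphocytes, platelets and immature red cells, and a ratio measured in it follows both how many cells of a type are present and how much of a transcript each holds, which cannot be told apart here. Neutrophils are short-lived phagocytes that are released from bone marrow under the control of granulocyte colony-stimulating factor. They carry large amounts of the calcium-binding proteins S100a8 and S100a9, antimicrobial granules, chemokine and formyl peptide receptors, and a small transcription programme in which factors of the C/EBP family take part. Growing tumours are known to alter the number and state of such cells in blood.

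The arrays of the 2 days differed in signal before any gene was compared. The median Cy5 signal above local background lay between 50.1 and 69.6 on the day 0 arrays and between 13.3 and 16.8 on the day 20 arrays. The Cy3 reference, described alike for every array, gave 79.6 to 110 on day 0 and 8 to 9.79 on day 20. The share of spots well above background in Cy5 was 46.6% to 51.4% on day 0 and 38.7% to 43.6% on day 20. The 4 arrays of a day shared 1 slide and 1 scan, so day and slide cannot be told apart. The day 20 array of mouse 305 stood apart from the others of its day. Across genes, its mean correlation with arrays of its own day was 0.41, and that of the other day 20 arrays was 0.62 to 0.65. On day 0 such means ran from 0.41 to 0.58. The lowest belonged to mouse 320, whose day 0 array had a higher mean correlation, 0.48, with the day 20 arrays. The other day 0 arrays had 0.23 to 0.37 with the day 20 arrays. Spike-in control spots changed by -0.10 on average, and their medians were -0.84 to -0.27 on the day 0 arrays and -0.79 to -0.55 on the day 20 arrays.

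Of 15179 genes measured, 637 (4.2%) differed between day 20 and day 0 at an adjusted p under 0.05 in limma with Benjamini-Hochberg adjustment. That fit took its estimate of the spread from all 20 arrays of the series. With only the 8 arrays of both days in the fit 3 genes were higher and 11 lower, all 14 among the 637. Among the genes named here S100a9, S100a8, BC089618, Adam8, Gsr, Txnl1 and Best2 were past the threshold in that smaller fit, and Lrg1 (adjusted p = 0.0692), Il1b (0.0807) and Cebpd (0.0664) were not. Lower genes (406, 2.67%) outnumbered higher ones (231, 1.52%), and 618 of the 637 moved the same way in all 4 mice. The genes were called on these same arrays, which favours such agreement, so it is not a separate replication. The share over all genes was not counted. The larger changes were downward: 15 genes fell by at least 2-fold and 0 rose by that much (limma, with 3765 genes of either direction at an unadjusted p under 0.05). Among genes with an established symbol the largest falls were in S100a9 and S100a8, the pair that forms calprotectin, followed by the secreted glycoprotein Lrg1, the cytokine Il1b and the transcription factor Cebpd. With the mouse as a term in the fit, 831 genes were higher and 636 lower, and the 637 genes above were all among them. With the mouse as a random block, 325 genes were higher and 491 lower. Without the day 20 array of mouse 305 the counts were 1453 higher and 1233 lower, and without any other 1 array they were 17 to 392 higher and 115 to 615 lower. Calls were fewest without the day 20 array of mouse 315, with 17 higher and 115 lower, and there were 35 higher and 191 lower without mouse 305 on day 0, 43 and 201 without mouse 310 on day 0, 120 and 243 without mouse 315 on day 0, and 392 and 615 without mouse 320 on day 0. Without the day 20 arrays of mouse 310 and of mouse 320 in turn the counts were 61 higher and 301 lower, and 27 higher and 179 lower.

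The counts also depended on how the dyes were balanced. When each array was centred on its median in place of the intensity-dependent loess curve, the median change of all genes moved from -0.021 to -0.26, and 4 genes were lower and 0 higher (limma). Calls were unevenly spread over brightness: of the 5060 brightest genes 163 were higher and 341 lower, of the 5059 of middle brightness 45 and 50, and of the 5060 dimmest 23 and 15.

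**Figure D1:**
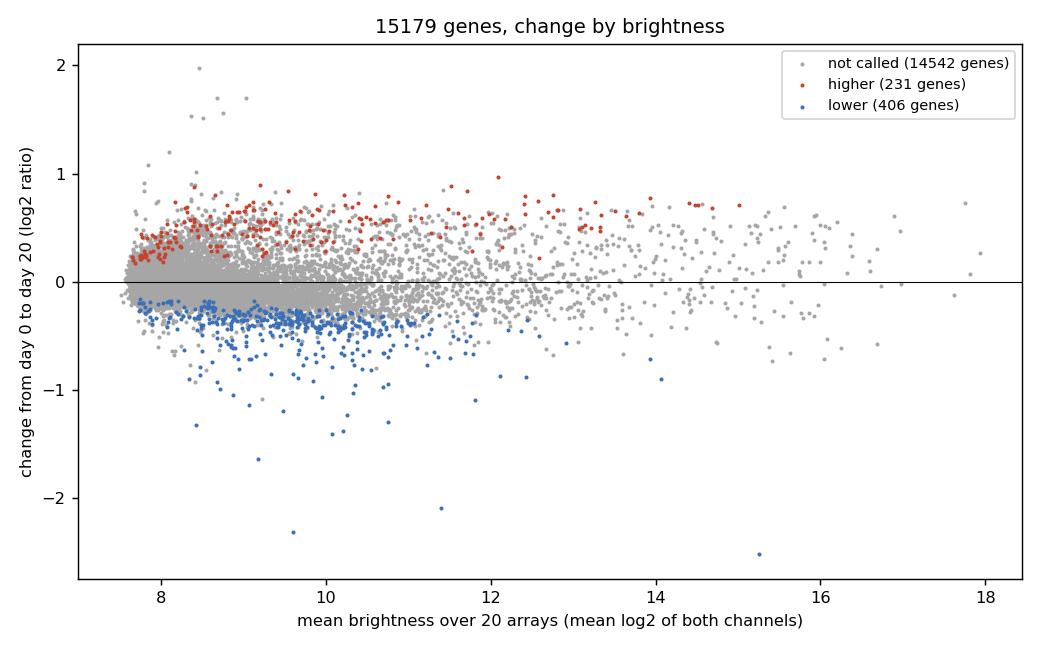
Change from day 0 to day 20 in log2 ratio (y axis) for 15179 genes against mean brightness over the 20 arrays (x axis, mean log2 of both channels), each point a gene, blue for the 406 lower genes and red for the 231 higher ones. The lower genes reach -2.52 while the higher genes stay below 1, and grey genes above 1 are ones that did not pass the threshold.

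S100a9 and S100a8 lie side by side on chromosome 3 and fell together, so the 250 bases before their start sites are shown, on the strand of each gene, from RefSeq sequence of the build GRCm38.p6. The letter patterns searched, on both strands, were TTGCNNAA, a core of sites bound by C/EBP factors, TTCNNNGAA, a core of sites bound by STAT factors, and TATAAA, the TATA box. Capitals mark the matches. The last sequence is the same stretch before Il1b, a cytokine gene that fell with them.
S100a8, chr3:90668821-90669070, plus strand: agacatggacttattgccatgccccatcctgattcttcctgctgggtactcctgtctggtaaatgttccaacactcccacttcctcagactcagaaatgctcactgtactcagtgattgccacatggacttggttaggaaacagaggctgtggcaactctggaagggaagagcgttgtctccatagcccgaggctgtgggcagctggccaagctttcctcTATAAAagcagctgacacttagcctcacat
S100a9, chr3:90695722-90695971, minus strand: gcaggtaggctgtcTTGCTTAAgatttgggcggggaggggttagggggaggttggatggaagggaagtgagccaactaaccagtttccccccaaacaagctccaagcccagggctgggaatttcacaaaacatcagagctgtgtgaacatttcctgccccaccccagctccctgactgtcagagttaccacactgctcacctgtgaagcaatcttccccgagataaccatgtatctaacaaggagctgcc
Il1b, chr2:129371140-129371389, minus strand: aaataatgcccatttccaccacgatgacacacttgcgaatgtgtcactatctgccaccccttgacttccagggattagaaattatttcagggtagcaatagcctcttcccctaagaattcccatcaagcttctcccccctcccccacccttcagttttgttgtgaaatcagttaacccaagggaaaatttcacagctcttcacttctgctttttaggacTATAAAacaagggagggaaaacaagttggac
The S100a8 stretch held TATAAA at 30 to 25 bases before the start and the Il1b stretch held it at 31 to 26 bases before it. The S100a9 stretch held 1 match to TTGCNNAA, the letters TTGCTTAA at 236 to 229 bases before the start. TTCNNNGAA was in none of these stretches. Over all 27025 genes of the promoter table, 10.8% had TTGCNNAA, 8.13% TTCNNNGAA and 14.3% TATAAA in at least 1 window of this length. Among the 302 genes lower at day 20 that the table covers, the shares were 8.28%, 7.62% and 12.6%, beside 9.42%, 7.34% and 9.75% of the 10155 tested genes it covers. A match is a description of letters and not a bound site.

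S100a9 showed the largest change of the genes past the threshold. It stood at 0.59, 2.05, 1.69 and 1.72 on day 0 in mice 305, 310, 315 and 320, and at -0.84, -0.60, -1.17 and -1.42 on day 20. It was 5.74-fold lower at day 20, a change of -2.52 ± 0.27 (log2, standard error of the fit, n = 4 and 4, limma adjusted p = 1.73e-04). For S100a8 the day 0 values were 0.67, 1.52, 1.66 and 1.72 and the day 20 values -0.74, -0.13, -0.89 and -1.03, in the same order of mice. Its change of -2.09 ± 0.23 amounted to 4.26-fold (limma adjusted p = 1.73e-04). For both genes every day 20 value lay below every day 0 value, and mouse 305 had the lowest value on day 0. BC089618, a gene with only a sequence-based name, changed by -2.31 ± 0.28 (limma adjusted p = 5.56e-04) and is named after its values were seen. S100a8 and BC089618 were the only genes of the 637 that stayed past the threshold in every alternative fit, S100a9 missing in 1, where arrays were scaled to the same spread (change -2.94, limma adjusted p = 0.0911).

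Next came secreted and signalling products of granulocytes. Lrg1, a leucine-rich glycoprotein stored in neutrophil granules, went from 0.60, 1.27, 0.88 and 1.15 on day 0 to -0.25, -0.041, -1.02 and -1.33 on day 20, 3.11-fold lower (-1.64 ± 0.28, limma adjusted p = 0.00500). Il1b, a main inflammatory cytokine of myeloid cells, went from 0.46, 1.37, 1.14 and 1.34 to -0.092, 0.16, -0.48 and -0.91, 2.65-fold lower (-1.41 ± 0.26, limma adjusted p = 0.00764). In both genes the day 20 values of mice 315 and 320 were the lowest of the 8. Cebpd, a C/EBP factor of the acute-phase response and of granulocytes, had 0.43, 1.19, 1.01 and 1.12 on day 0 and -0.18, 0.033, -0.70 and -0.90 on day 20, a fall of 2.60-fold (limma adjusted p = 0.00325). Wfdc21, a small secreted protein of neutrophils, changed by -1.32 ± 0.16 and Hp, haptoglobin, which binds free haemoglobin, by -1.30 ± 0.24. Adam8, a surface metalloprotease of granulocytes, fell from 0.99 ± 0.16 to -0.24 ± 0.26 (SD, n = 4) with a limma adjusted p of 1.73e-04. Cd300lf, an inhibitory receptor of myeloid cells, fell by 2.29-fold, although a second, dimmer probe of the gene changed by -0.22. The 12 largest falls among genes with a symbol and the same direction in all 4 mice closed with Ppp1r3d (-1.14), which targets a phosphatase to glycogen, Slpi (-1.10), an inhibitor of neutrophil proteases, and Anxa1 (-1.06), an annexin that limits neutrophil recruitment. In all 12 the day 20 values lay below the day 0 values in every array, as was so for 983 genes (6.48%) over all tested. Of the 12, 11 stayed past the threshold without any 1 array. Anxa1 did not, with a limma adjusted p of 0.0832, 0.0972, 0.0581 and 0.0510 without the day 0 arrays of mice 305, 310, 315 and 320 and of 0.128 and 0.133 without the day 20 arrays of mice 315 and 320. Pygl, glycogen phosphorylase, named after its values were seen, changed by -1.03 (limma adjusted p = 0.00206). Of the 12, S100a9, S100a8 and Wfdc21 also passed under median centring.

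**Figure D2:**
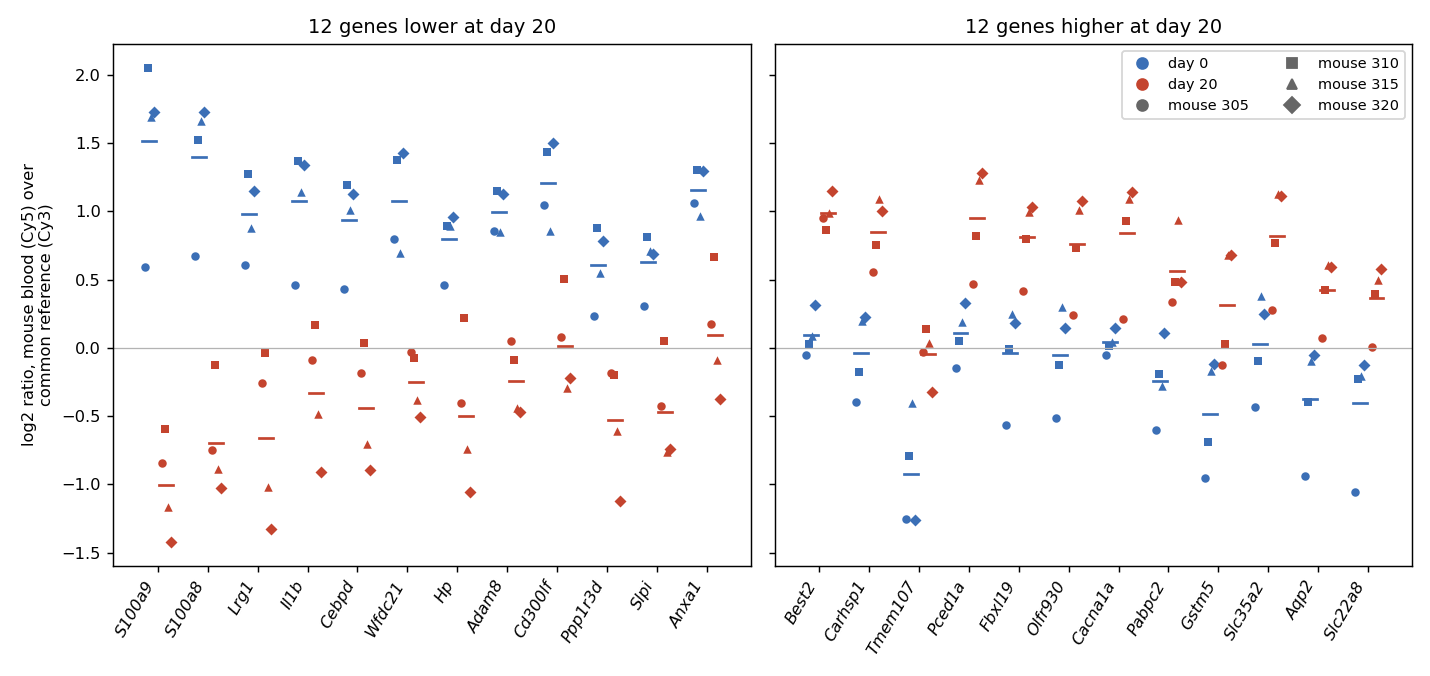
Log2 ratio of mouse blood over the common reference (y axis) on each day 0 array (blue) and each day 20 array (red) for the 12 lowest and 12 highest genes past the threshold, with a symbol for each mouse and a bar at the mean of 4. All 12 lower genes are separated between days, and the higher genes move by less, up to 0.89, with 6 of them turning sign under median centring.

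The mature neutrophil list as a whole was lower. Of its 25 members measured, 15 fell and 1 rose, beside 2.67% and 1.52% of all genes, and the median change was -0.71, beside -0.021 over all genes. Of the 5060 brightest genes, where calls were most frequent, 341 were lower and 163 higher. The list was chosen with earlier results of these data known, so its counts are a description and not independent support. Changes within each mouse had medians of -0.57, -0.36, -0.60 and -1.27 in mice 305, 310, 315 and 320, so mouse 320 moved most and mouse 310 least. The median ratio of the list was 0.44 to 0.92 on the day 0 arrays and -0.28 to 0.26 on the day 20 arrays, without overlap. Beside S100a9, S100a8, Lrg1, Wfdc21, Slpi and Anxa1, the members that fell were Hdc (-1.05), the enzyme that makes histamine, Cxcr2 (-0.99), the receptor for neutrophil-attracting chemokines, Retnlg (-0.95), a resistin-like secreted protein, Mmp8 (-0.87), neutrophil collagenase, Csf3r (-0.81), the receptor for granulocyte colony-stimulating factor, Mcemp1 (-0.71), Selplg (-0.66), a ligand of selectins, and the formyl peptide receptors Fpr1 (-0.64) and Fpr2 (-0.63). Several of these, from Cxcr2 onward, are named beyond the 5 largest after their values were seen. Members that did not pass included Mmp9 at -0.45, Pglyrp1 at -0.11 and Cd177 at 0.0051. Stfa3, a stefin, was the member that rose (0.70, limma adjusted p = 0.0452), and with median centring its sign turned (-0.071). Its relatives Stfa2l1 (-0.82, limma adjusted p = 0.0622) and Cstdc4 (-0.90, limma adjusted p = 0.0159) had the opposite sign, and probes of this family are uncertain between near-identical copies. The neutrophil list had 0 higher and 10 lower without day 20 mouse 315, 0 higher and 11 lower without day 20 mouse 320, 0 higher and 13 lower without day 0 mouse 305 or day 0 mouse 310, and 0 higher and 17 lower without day 20 mouse 310. With median centring 0 rose and 3 fell, with a list median of -1.51. Csf3r lost its call without the day 20 array of mouse 315, and Cxcr2 and Cstdc4 lost theirs without that of mouse 315 (limma adjusted p = 0.0736 and 0.0700) or of mouse 320 (0.0530 and 0.0652). Fpr1 and Fpr2 also lost the call without at least 1 of the arrays, and Stfa3 without the day 0 array of mouse 305 or 310 or the day 20 array of mouse 310, 315 or 320.

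Phagocyte receptors and the oxidase genes fell in part. Of 25 members 12 fell and 0 rose, beside 2.67% and 1.52% of all genes, and the median was -0.33. The members that fell were mostly surface receptors and their adaptors: Cd300lf, the C-type lectins Clec4d (-0.92 ± 0.17, limma adjusted p = 0.00687) and Clec4e (-0.79), the beta-glucan receptor Clec7a (-0.69) and the IgG receptor Fcgr3 (-0.61). Clec4d had -0.10, 0.38, 0.52 and 0.63 on day 0 and -0.46, -0.13, -0.91 and -0.73 on day 20, with every day 20 value below every day 0 value. A second Fcgr3 probe changed by -0.17. Among oxidase subunits, Cybb at -0.016 (limma adjusted p = 0.952), Cyba at -0.088 and Ncf1 at -0.033 did not pass the threshold. Itgam, the integrin of neutrophils and monocytes, was at -0.040 (limma adjusted p = 0.712). Its value depended on the processing. Itgam was lower without background correction (-0.19, limma adjusted p = 0.00622), with scaling between arrays (-0.090, 0.0339) and with Cy5 alone (-0.22, 3.67e-04). With negative control spots as background (-0.31, limma adjusted p = 0.0506), median centring (-0.28, 0.245) or the scanner software's log ratio (-0.20, 0.577) it did not pass. The phagocyte list had 0 higher and 7 lower without day 20 mouse 315. With median centring 0 fell (limma), with a list median of -1.0.

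Among the cytokine receptors and their signalling genes 6 of 25 fell and 0 rose, beside 2.67% and 1.52% of all genes. The list median was -0.16. The common beta chain Csf2rb, which serves the receptors for GM-CSF, IL-3 and IL-5, went from 0.49, 0.53, 0.44 and 0.82 to -0.037, 0.055, -0.31 and -0.82 (-0.85 ± 0.17, limma adjusted p = 0.0119). A dimmer probe named for Csf2rb gave 0.47, the opposite sign, so the 2 probes disagreed. Its relative Csf2rb2, a near-identical copy, changed by -0.45. Socs3, which is induced by cytokines and blocks their receptors, had 0.19, 0.81, 0.85 and 0.69 on day 0 and -0.095, 0.27, -0.093 and -0.25 on day 20, with the day 0 value of mouse 305 below the day 20 value of mouse 310 (-0.68 ± 0.14, limma adjusted p = 0.0115). Stat3 changed by -0.53 ± 0.10 on its brightest probe and by -0.019 on a second one, and Stat5b by -0.33 and 0.0073. The kinases were at -0.034 for Jak1, -0.18 for Jak2 and -0.034 for Jak3, none past the threshold. The cytokine signalling list had 0 higher and 3 lower without day 20 mouse 315.

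Over all genes 2.67% were lower and 1.52% higher, while of 13 C/EBP and granulocyte transcription factor genes 5 fell and 0 rose. Beside Cebpd they were Cebpb (-0.72 ± 0.18, limma adjusted p = 0.0311), Bcl6 (-0.66 ± 0.12, limma adjusted p = 0.00538), a repressor expressed in neutrophils and B cells, Junb (-0.65 ± 0.11, limma adjusted p = 0.00569), an AP-1 subunit, and Stat5b. A second Junb probe changed by -0.94, while a second Cebpb probe was at -0.11. Cebpa was at -0.091 and Gfi1 at 0.032, neither past the threshold, and Spi1 and Cebpe were not among the genes tested. The C/EBP list had 0 higher and 3 lower without day 0 mouse 305 or day 0 mouse 310 or day 0 mouse 315 or day 20 mouse 315 or day 20 mouse 320. Cebpb was lost without any of the day 0 arrays of mice 305, 310 and 315 or the day 20 arrays of mice 315 and 320.

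The list of genes associated with myeloid suppressor cells had 4 of 15 members lower and 0 higher, beside 2.67% and 1.52% of all genes. All 4, Clec4d, Clec4e, Cebpb and Stat3, are also members of the lists above. The myeloid suppressor associated list had 1 higher and 5 lower without day 20 mouse 305. Arg1, the arginase of such cells, was at 0.14, Arg2 at -0.20 and Il10 at 0.18, none past the threshold. In the inflammatory cytokine list 2 of 21 fell (9.52%, beside 2.67% of all genes), Il1b and Socs3, with a list median of -0.065. The inflammatory cytokine list had 0 higher and 4 lower without day 20 mouse 305. Tnf was at 0.036, Nfkbia at -0.37 and Nfkb1 at -0.098. Among granule proteins of immature granulocytes 1 of 11 fell, Hp, a share (9.09%) that rests on 1 gene. Camp (0.11), Ngp (0.013) and Lcn2 (-0.22) did not pass. The granule list had 0 higher and 3 lower without day 20 mouse 310, and 2 higher and 2 lower without day 20 mouse 305. Ltf, lactoferrin, had 0.17, 0.074, 0.009 and -0.040 on day 0 and 0.30, 3.28, 1.24 and 1.52 on day 20. All 4 day 20 values were higher than the day 0 values, mouse 310 by far the most, and the limma adjusted p was 0.121. Ltf passed without background correction (1.44, limma adjusted p = 0.0283), with the scanner software's log ratio (2.39, 0.0255) and with Cy5 alone (1.21, 0.0253). It did not pass with negative control spots as background (limma adjusted p = 0.0979), median centring (0.245) or scaling between arrays (0.268). Elane, Mpo, Fcnb and Ms4a3 were not well above background on any of the 8 arrays.

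Lists of metabolism and cell survival genes had few members past the threshold. The shares that fell were 15.4% for glycolysis and hypoxia, 9.09% for antioxidant enzymes, 15.4% for the BCL2 family and 4.35% for heme and iron. Over all genes the share was 2.67%, and of the 5060 brightest genes 341 were lower. Each list share rests on 1 to 4 genes, and its distance from that of all genes was not tested. In the glycolysis and hypoxia list 4 of 26 fell and 0 rose: the lactate exporter Slc16a3 (-0.68), the mTORC1 inhibitor Ddit4 (-0.67), Pfkfb4 (-0.40), which sets fructose bisphosphate levels, and the glycolytic enzyme Gpi1 (-0.30). Ddit4 had 0.85, 1.01, 0.89 and 0.64 on day 0 and 0.28, 0.15, 0.39 and -0.10 on day 20, with no overlap (limma adjusted p = 0.00957). The glycolysis list had 0 higher and 2 lower without day 0 mouse 310 or day 0 mouse 315 or day 20 mouse 315 or day 20 mouse 320, and 1 higher and 5 lower without day 20 mouse 305. Gsr, glutathione reductase, fell from 0.81 ± 0.036 to -0.037 ± 0.21 (SD, n = 4, limma adjusted p = 7.94e-04), and 2 further probes of it changed by -0.66 and -0.63. Txnl1, a thioredoxin-like protein, changed by -0.43, and they were the 2 of 22 antioxidant genes that fell. The antioxidant enzymes list had 2 higher and 2 lower without day 0 mouse 320 or day 20 mouse 305, beside 1 higher and 2 lower with the mouse as a term. Mcl1, which protects neutrophils from apoptosis, changed by -0.45 on its brightest probe and -1.20 on another, and Bbc3, which promotes apoptosis, by -0.26. They were the 2 of 13 BCL2 family genes that fell. The BCL2 family list had 0 higher and 0 lower without day 20 mouse 315 or day 20 mouse 320, 0 higher and 1 lower without day 0 mouse 305 or day 0 mouse 310 or day 0 mouse 315, 1 higher and 1 lower without day 0 mouse 320, and 1 higher and 2 lower without day 20 mouse 305, beside 1 higher and 2 lower with the mouse as a term. Slc40a1, the iron exporter ferroportin, changed by -0.74 (limma adjusted p = 0.0177) and was the 1 of 23 heme and iron genes that fell, a share near that of all genes. The heme synthesis list had 0 higher and 0 lower without day 0 mouse 310 or day 20 mouse 315 or day 20 mouse 320, 3 higher and 1 lower without day 0 mouse 320, and 4 higher and 2 lower without day 20 mouse 305, beside 3 higher and 3 lower with the mouse as a term.

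Of 34 interferon-stimulated genes 5 fell and 0 rose, beside 2.67% and 1.52% of all genes, with values on both sides. Ifi27l2a had 0.38, 0.13, 0.40 and 0.16 on day 0 and -0.31, -0.83, -0.93 and -0.14 on day 20 (-0.82 ± 0.16, limma adjusted p = 0.00958). Rtp4 (-0.64), Trim30a (-0.56), Parp14 (-0.41) and Irf9 (-0.30), a subunit of the interferon-activated ISGF3 complex, were the others. A second Trim30a probe gave -0.45, whereas second probes of Parp14 and Irf9 gave -0.012 and -0.035. Isg15, the ubiquitin-like modifier, went the other way in its values, from -0.50, -0.22, -0.30 and 0.71 on day 0 to 0.33, 0.82, 1.12 and 0.82 on day 20, and missed the threshold (limma adjusted p = 0.0517). The day 0 value of mouse 320 overlapped with day 20, and with median centring the sign turned (-0.0026). With the mouse as a term Isg15 passed (adjusted p = 0.0173). Isg15 also passed without background correction (limma adjusted p = 0.0220), with the scanner software's log ratio (0.0227) and with Cy5 alone (0.0369). It missed with negative control spots as background (limma adjusted p = 0.0578) and with scaling between arrays (0.839). Irf7 was at 0.62 and not past the threshold. The interferon list had 0 higher and 1 lower without day 0 mouse 305 or day 20 mouse 315, 0 higher and 3 lower without day 0 mouse 315 or day 20 mouse 310, 2 higher and 8 lower without day 20 mouse 305, and 3 higher and 6 lower without day 0 mouse 320, beside 1 higher and 6 lower with the mouse as a term. In MHC class I presentation 1 of 16 fell (6.25%), Tapbp, the chaperone tapasin (-0.49), with 0.040 on a second probe. The MHC class I presentation list had 0 higher and 4 lower without day 0 mouse 320.

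**Figure D3:**
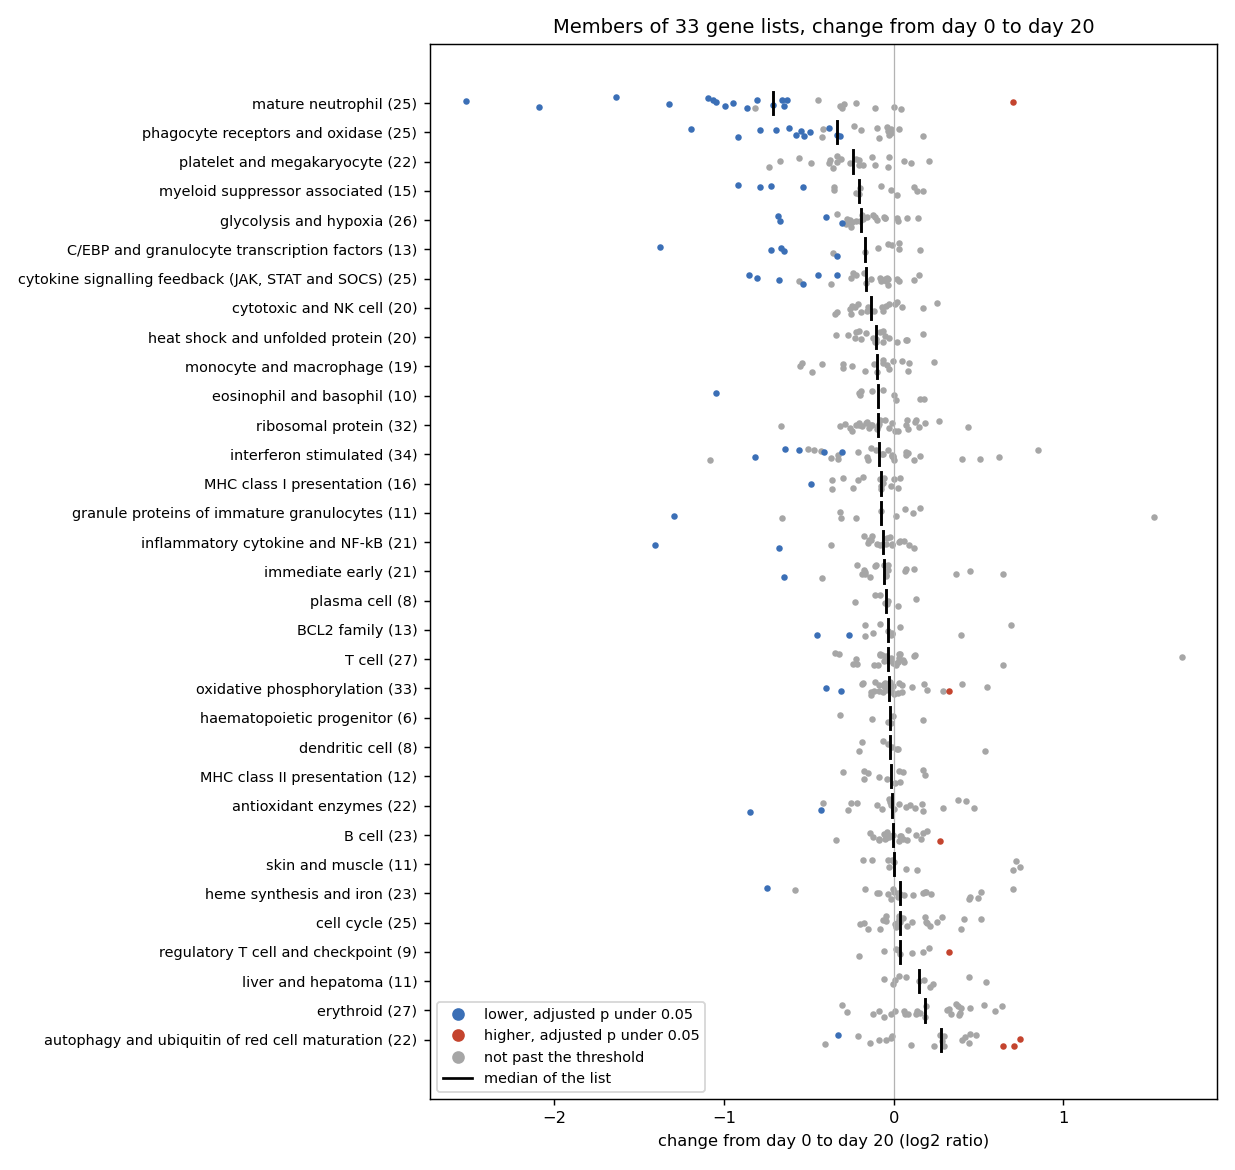
Change from day 0 to day 20 in log2 ratio (x axis) of each measured member of 33 gene lists (y axis, with the number of members measured), blue where lower and red where higher at an adjusted p under 0.05, grey otherwise, with a black bar at the list median. The mature neutrophil list has the lowest median (-0.71), and the list of autophagy and ubiquitin genes of red cell maturation the highest (0.28, which becomes -0.56 with median centring).

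Lymphocyte and monocyte markers had few members past the threshold, where 2.67% of all genes were lower and 1.52% higher. T cell markers had 0 of 27 past the threshold and a median of -0.030, cytotoxic and NK cell markers 0 of 20 and -0.13, and monocyte and macrophage markers 0 of 19 and -0.100 (limma). Of 23 B cell markers 1 rose, Fcer2a, the low-affinity IgE receptor (0.27, limma adjusted p = 0.0301), with a list median of -0.0055. The call for Fcer2a was lost without the day 0 array of mouse 310 or 320 or the day 20 array of mouse 310, 315 or 320, and the sign turned with median centring (-0.40). MHC class II genes were 0 of 12 past the threshold, with a median of -0.017. Ikzf4, a transcription factor of regulatory T cells, rose by 0.33, the 1 of 9 in its list, and lost the call without any of 7 arrays. Eosinophil and basophil markers had 1 of 10 lower, Hdc, which the neutrophil list also holds. The eosinophil list had 0 higher and 3 lower without day 20 mouse 305, beside 0 higher and 3 lower with the mouse as a term. Platelet markers had a median of -0.24 and 0 of 22 past the threshold. Pf4, platelet factor 4, was among them at -0.73 (limma adjusted p = 0.0845, 3 day 0 arrays). Changes within mouse of the platelet list had medians of 0.12, -0.054, -0.79 and -0.40, above 0 in mouse 305 and below 0 in the others. The platelet list had 0 higher and 1 lower without day 20 mouse 310, and 0 higher and 2 lower without day 0 mouse 305, beside 0 higher and 2 lower with the mouse as a term.

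Red cell genes had higher medians with few calls. Erythroid genes had 0 of 27 past the threshold and a median of 0.18, with medians of 0.42, 0.20, 0.61 and -0.25 within mice 305, 310, 315 and 320. Mouse 320 was below 0 and the others above it. The erythroid list had 3 higher and 0 lower without day 20 mouse 305, and 4 higher and 0 lower without day 0 mouse 320, beside 2 higher and 0 lower with the mouse as a term. Slc4a1, the band 3 anion exchanger, was at 0.45. Hba-a1, a haemoglobin alpha chain, was saturated on all 4 day 0 arrays and on 1 day 20 array. Hbb-b1, Hbb-b2 and Xk of the erythroid list and Alas2 of the heme list were not among the genes tested. In the list of autophagy and ubiquitin genes of red cell maturation 3 of 22 rose and 1 fell, beside 1.52% and 2.67% of all genes. Fbxo9 (0.75, an F-box protein) and Ube2l6 (0.71, the conjugating enzyme for Isg15) were among those that rose, and the autophagy kinase Ulk1 fell (-0.33). Both turned sign with median centring (-0.18 and -0.24), and both lost the call without the day 0 array of mouse 305, 310 or 315 or the day 20 array of mouse 310, 315 or 320. The red cell maturation list had 0 higher and 0 lower without day 20 mouse 315, 0 higher and 1 lower without day 0 mouse 305 or day 20 mouse 320, 1 higher and 0 lower without day 0 mouse 310, 1 higher and 1 lower without day 0 mouse 315 or day 20 mouse 310, and 5 higher and 1 lower without day 20 mouse 305. The median of this list went from 0.28 to 0.029 without the day 0 array of mouse 305 and to -0.56 with median centring. Oxidative phosphorylation had Sdhd (-0.40) and Atp5a1 (-0.31) lower and Cox7c (0.33) higher of 33, each lost without the day 20 array of mouse 315. A second Atp5a1 probe changed by 0.026. The oxidative phosphorylation list had 0 higher and 0 lower without day 0 mouse 305 or day 0 mouse 315 or day 20 mouse 315 or day 20 mouse 320, 0 higher and 1 lower without day 0 mouse 310 or day 20 mouse 310, and 2 higher and 2 lower without day 0 mouse 320, beside 2 higher and 2 lower with the mouse as a term. Ribosomal protein genes had 0 of 32 past the threshold and a median of -0.091. Cell cycle (25 members), heat shock (20), plasma cell (8), dendritic cell (8) and progenitor (6) lists had 0 past the threshold (limma), with medians of 0.038, -0.10, -0.043, -0.021 and -0.023.

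Markers of other tissues were also measured. Of 11 liver and hepatoma genes bright enough to test, 0 passed (limma), with a median of 0.15, and the median ratio of the list was -0.0095 to 0.024 on the day 0 arrays and 0.013 to 0.19 on the day 20 arrays. Alb, albumin, was well above background on 0 of 4 day 0 arrays and 1 of 4 day 20 arrays, and Apob, Cps1, Fga, Fgg, Hpx, Rbp4 and Epcam on none of the 8. Afp, the fetal liver protein made by many hepatomas, had 0.027, 0.075, 0.063 and 0.093 on day 0 and -0.0023, 0.023, -0.17 and 0.19 on day 20 (limma adjusted p = 0.615). Skin and muscle genes had 0 of 11 past the threshold and a median of 0.005. Defining markers of blood cells were measured, with 24 of 25 mature neutrophil genes and 26 of 27 T cell genes well above background on all 4 day 0 arrays. On all 4 day 20 arrays 22 and 26 of them were. The brightest probe of Cd4, a T cell gene, was well above background on none of the 8.

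None of the 12 genes that rose most, by the same rule, rose by 2-fold under the reported processing. Best2, a bestrophin chloride channel, had -0.054, 0.026, 0.087 and 0.31 on day 0 and 0.95, 0.86, 0.98 and 1.15 on day 20, 1.86-fold higher (0.89 ± 0.17, limma adjusted p = 0.00829). Carhsp1, an RNA-binding phosphoprotein, went from -0.036 ± 0.30 to 0.85 ± 0.24 (SD, n = 4), 1.85-fold higher (change 0.89, limma adjusted p = 0.00325), but a second probe of it changed by 0.058. In both, every day 20 value lay above every day 0 value. Tmem107, a membrane protein of cilia, rose by 0.88, Pced1a by 0.84 and Fbxl19, an F-box protein, by 0.84. Further probes of Pced1a gave -0.074 and 0.017, and a second probe of Fbxl19 -0.020. The others were the olfactory receptor Olfr930 (0.81), the neuronal calcium channel subunit Cacna1a (0.80), the poly(A)-binding protein Pabpc2 (0.80), the glutathione transferase Gstm5 (0.80), the UDP-galactose transporter Slc35a2 (0.80), the kidney water channel Aqp2 (0.79) and the kidney organic anion transporter Slc22a8 (0.77). In 9 of the 12 the days did not overlap, as was so in the upward direction for 408 genes (2.69%) of all. None passed with median centring, and 6 of the 12 turned sign there, namely Fbxl19 (-0.051), Olfr930 (-0.075), Pabpc2 (-0.11), Gstm5 (-0.0033), Aqp2 (-0.12) and Slc22a8 (-0.057). With the Cy5 channel taken alone Tmem107 turned sign too (-0.055). Best2 and Carhsp1 stayed past the threshold without any 1 array, while the other 10 were lost without the day 20 array of mouse 315 (adjusted p up to 0.172), 8 without the day 0 array of mouse 305 (up to 0.161), 7 without the day 20 array of mouse 320 (up to 0.159), 5 without the day 20 array of mouse 310 (up to 0.0686), 4 without the day 0 array of mouse 310 (up to 0.122) and 2 without the day 0 array of mouse 315 (up to 0.0599).

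**Figure D4:**
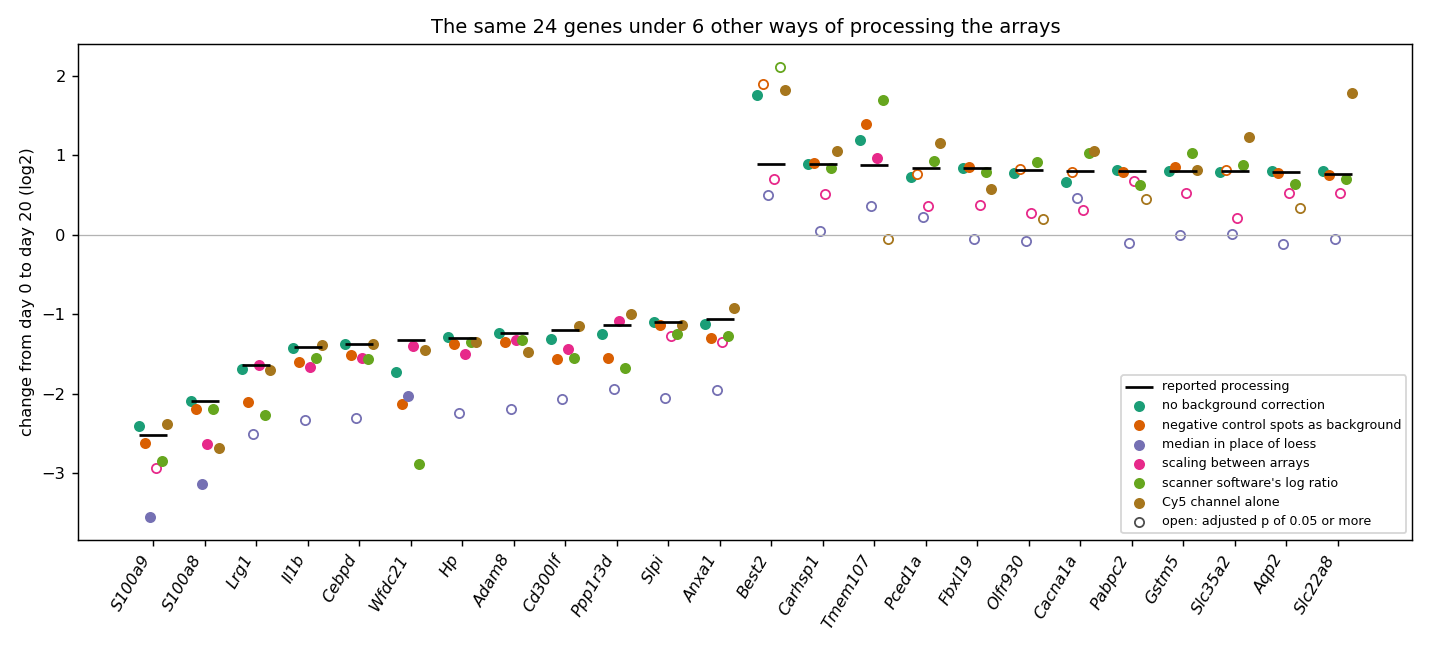
Change from day 0 to day 20 (y axis, log2) of the same 12 lower and 12 higher genes under the reported processing (black bars) and 6 others (coloured circles), filled where the adjusted p was under 0.05 and open otherwise. The lower genes stay below 0 throughout, while with median centring the higher genes lie between -0.12 and 0.50, 6 of them below 0, and Tmem107 lies below 0 with Cy5 alone.

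Some genes past the threshold were not well above background on any day 20 array, and the 4 of them with the largest changes were Tsga10, Tmem154, Chrm1 and Map3k9. Tsga10 was at least 1.08-fold lower at day 20 (measured change -0.20, limma adjusted p = 0.0367). Tmem154 had a measured change of -0.19 (limma adjusted p = 0.0335), and no fold is given for it. Chrm1 (0.23) and Map3k9 (0.23) had higher measured ratios, and no fold is given because the bound was under 1. Their sign turned with the scanner software's log ratio (-0.31 and -0.44). Each of the 4 lost its call without the day 20 array of mouse 310, 315 or 320 or the day 0 array of mouse 305, 310 or 315, and all but Map3k9 without that of mouse 320.

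The largest single values on day 20 came from 1 array. On the day 20 array of mouse 305, 14 genes were at least 2 log2 units above all of the other 7 arrays, whereas no other array of the 8 had any such gene. Slc10a1, the bile acid transporter of liver cells, had -0.14, 0.083, 0.059 and 0.23 on day 0 and 6.00, 0.53, 0.65 and 0.94 on day 20. Cd3e, a chain of the T cell receptor complex, had 5.72, 0.33, 0.49 and 0.55 on day 20. Of the spots of the 14 genes, 13 lay within 1360 consecutive spot numbers, from 29105 to 30464 of 45018. The local Cy5 background around the 14 spots was 558 to 25556, beside a median of 116.5 on that array, and around the Slc10a1 spot it was 25556 there and at most 112.5 on the other day 20 arrays. On that array 184 probe spots had a local background above 3 times the array's median, against 0 to 34 on the other 7. With such spots left out, a setting chosen after seeing the data, Slc10a1 changed by 0.65 in place of 1.97 (limma adjusted p = 0.0244 in place of 0.127) and Cd3e by 0.38 in place of 1.70 (adjusted p = 0.0784 in place of 0.177). The counts were then 235 higher and 410 lower, with 633 of the 637 genes among them.

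Day 20 was also set directly against the neighbouring bleeds, without the day 0 arrays in the contrast. Between day 20 and day 10, 4 genes differed (0.0264%), all higher at day 20. They were the kinesin-binding protein Appbp2 (0.54 ± 0.077, limma adjusted p = 0.0217), the nucleolar methyltransferase Fbl (0.52), the tRNA methyltransferase Trmt2a (0.49) and 4833420G17Rik (0.39), which has only a clone name and is named after its values were seen. With the mouse as a term 31 genes differed. Without the day 20 array of mouse 315 or 320 the count was 0 (limma), and without the day 20 array of mouse 305 or the day 0 array of mouse 305 or 320 it was 119, 31 and 73. Between day 20 and day 15, 25 genes differed (0.165%), 21 higher and 4 lower at day 20, and 48 with the mouse as a term. Cirbp, a cold-inducible RNA-binding protein, rose most (1.13 ± 0.18, 2.19-fold, limma adjusted p = 0.0165), followed by Nme2, a nucleoside diphosphate kinase (0.55), Tcf25 (0.51), the splicing factor Hnrnpa1 (0.51) and the translation initiation subunit Eif3e (0.50). Ntng1 (-0.90), 2610524H06Rik (-0.75, named after its values were seen), Tspyl1 (-0.69) and Camsap1 (-0.44) fell. Cirbp had -0.008, 0.059, -0.063 and 0.13 on day 15 and 1.06, 1.08, 1.10 and 1.38 on day 20. The count became 2 to 5 without the day 20 array of mouse 310, 315 or 320 or the day 0 array of mouse 310, while it was 41 and 82 without the day 0 arrays of mice 305 and 320 and 1012 without the day 20 array of mouse 305. No gene of the mature neutrophil list passed in either comparison, and its median was -0.13 against day 10 and -0.057 against day 15.

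Between day 20 and day 25, 3819 genes (25.2%) differed, 1793 (11.8%) higher and 2026 (13.3%) lower at day 25. Red cell genes were among the largest falls. Slc4a1 went from 0.53, 0.52, 0.97 and 0.23 on day 20 to -1.34, -0.69, -1.25 and -0.88 on day 25 (-1.60 ± 0.27, 3.04-fold lower, limma adjusted p = 0.00205). Trim10, a protein of erythroid maturation, changed by -1.60 and Isg15 by -1.59. Slc10a1 changed by -2.15, a value that holds the bright patch of mouse 305, and by -0.83 with such spots left out. Of the erythroid list 21 of 27 fell and 1 rose, with a median of -0.80, and of the autophagy and ubiquitin list 14 of 22 fell and 2 rose (-0.78). S100a9 rose by 1.10 ± 0.27 from day 20 to day 25 (limma adjusted p = 0.0100), and 5 of 25 mature neutrophil genes rose and 1 fell. The other largest rises were in the cold-inducible RNA-binding protein Rbm3 (1.04), the platelet receptor Clec1b (0.97), the ribosomal protein Rps18 (0.96) and the adhesion receptor Cd44 (0.91). The count was 2106 without the day 20 array of mouse 315 and 2436 without that of mouse 320. With median centring 0 genes differed between these days (limma).

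Each comparison with day 0 uses the same 4 day 0 arrays, so the values are given side by side without a test between them. Against day 0, S100a8 changed by -1.83 at day 10, -1.59 at day 15, -2.09 at day 20 and -1.19 at day 25. For S100a9 the series was -2.03, -2.10, -2.52 and -1.42, and for Cebpd -1.45, -1.15, -1.38 and -0.89. Both calprotectin genes were thus lowest at day 20, without a difference past the threshold from day 10 or day 15 (limma adjusted p = 0.420 and 0.424 for S100a9, 0.642 and 0.276 for S100a8). Mature neutrophil genes below day 0 numbered 16 of 25 at day 10, 16 at day 15, 15 at day 20 and 3 at day 25, where 9.05%, 5.12%, 2.67% and 0.152% of all genes were lower and 14.1%, 7.73%, 4.2% and 0.198% differed in either direction. The autophagy and ubiquitin list had 13, 11, 3 and 0 of 22 higher on those days, beside 5.03%, 2.61%, 1.52% and 0.0461% of all genes.

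**Figure D5:**
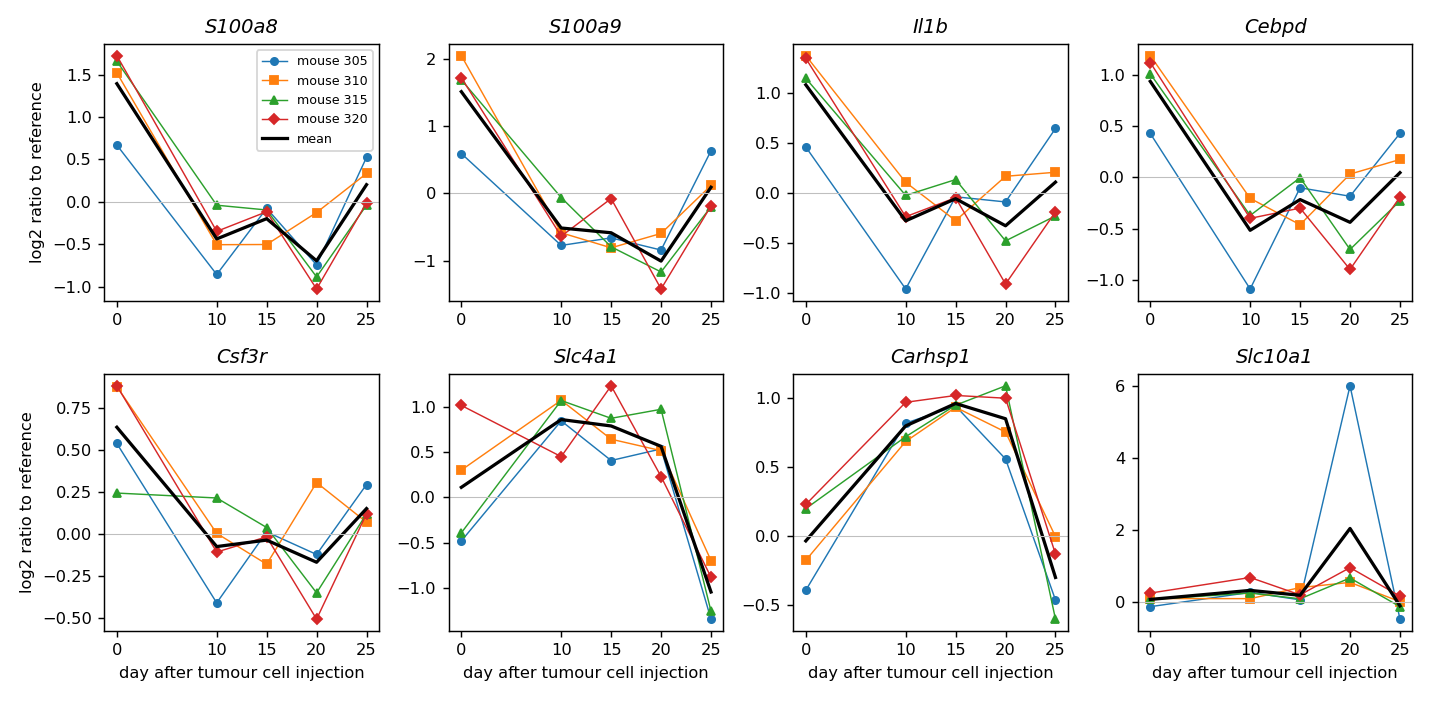
Log2 ratio to the common reference (y axis) by day after tumour cell injection (x axis) for 8 genes, a coloured line for each of the 4 mice and a black line for their mean. The means of S100a8 and S100a9 are lowest on day 20, Slc4a1 falls to a mean of -1.04 on day 25, and the Slc10a1 peak on day 20 is the 1 array of mouse 305 with bright local background.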

How the data were processed

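Whole-blood RNA of 4 mice was measured on 20 two-colour Agilent arrays, of which the 4 of day 0 and the 4 of day 20 are compared here, grouped by the day in the labels. The deposited files hold the intensity of each spot and its local background in both channels, as exported by the scanner software (Agilent Feature Extraction, version 9.1.3.1), per the submitters' processing notes. They also hold a log10 ratio of red over green that the authors' software made, and the deposited series matrix held the same log10 ratio in 900360 of 900360 values (equal to within 1e-06). Further steps of the authors are not given in the sources used here.

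Intensities were background-corrected with normexp (offset 50) and normalized by loess within arrays in limma 3.58.1 (R 4.3.3, statmod 1.5.0, data.table version 1.17.8). Spots marked non-uniform were left out, and spots of one probe averaged. A probe was kept if well above background in Cy5 on at least 4 of 20 arrays and measured on at least 3 of every day (20937 probes). The brightest probe stood for a gene (4339 genes had several), which left 15179 genes. No gene had 2 probes called in opposite directions. Of 41174 probes, 23374 were named by accession, 6733 by symbol and 2915 by synonym in the RefSeq gene list (GRCm38.p6), and 8152 kept the file's name. Of 104 genes checked on the day 0 and day 20 arrays, 1, Hba-a1, had a saturated spot.

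One limma fit over all 20 arrays with 5 day means and no block gave two-sided tests, adjusted by Benjamini-Hochberg over all genes at 0.05. All 4 samples a day are separate animals, and their number limits the precision. The mouse numbers pair the samples because the same animals were bled each day. Deviations from the day means correlated at 0.29, 0.26, -0.0015 and 0.098 between days 0 and 20 of mice 305, 310, 315 and 320, and the fit with the mouse as a block is given where it changes a result. On simulated data for the comparison of day 20 with day 0 (15179 genes) the fit recovered 39 of 50 genes changed by 0.5, 48 of 50 changed by 1, 49 of 50 changed by 1.5 and 50 of 50 changed by 2 on the log2 scale. The simulated noise was independent, with the same spread for a gene on every array. It held no slide, mouse or outlying-array effect, so these shares do not measure recovery on the real arrays. Gene lists (33) are described by counts and medians, with no test of a list. Named were the 12 highest and 12 lowest called genes that moved alike in all 4 mice, up to 5 called members a list in each direction, up to 4 genes with only a bound, and up to 5 genes each way against a neighbouring day. Others are said to be named after their values were seen, and some genes that the rule names are not reported here. A bound is the mean of the brighter day over the lowest signal well above background, or the gene's own where higher, per channel after loess and Aquantile, which is open to dye bias. The members and lists were chosen with earlier results of these data known.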

Additional observations from a re-analysis of the deposited data

Results flagged for a closer look

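Within the 4 arrays of a day, 1 mouse stood far from the other mice in 15 of 205 tests of named genes. For lists the 4 values were the median changes within each mouse, and 1 mouse stood far from the others in 1 of 33 tests. Both used Dixon's test of the gap to the nearest value, with a mark that chance meets in about 1 of 20 groups.

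Some of these were on day 20. Mouse 305 had 6.00 for Slc10a1, where the others had 0.53 to 0.94, and 5.72 for Cd3e against 0.33 to 0.55, both on spots with bright local background. The same mouse had -0.44 for Ntng1 against -1.07 to -1.01. Mouse 310 had 0.51 for Slc16a3 against -0.066 to 0.022. Mouse 315 had 1.66 for Trim10 against 0.88 to 0.93. Mouse 320 had 0.21 for Trim30a against -0.20 to -0.13 and 1.38 for Cirbp against 1.06 to 1.10.

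On day 0, mouse 305 had -1.05 for Slc22a8 against -0.23 to -0.12 in the others, 0.46 for Hp against 0.89 to 0.96, and 0.75 for Cybb against 0.11 to 0.15. Mouse 310 had -0.0039 for Bbc3 against 0.19 to 0.22. Mouse 315 had 0.092 for Csf2rb2 against 0.32 to 0.36 and 0.041 for Itgam against 0.14 to 0.16. Mouse 320 had 0.053 for Map3k9 against 0.0061 to 0.0087 and 0.96 for Irf7 against 0.063 to 0.20. The median change of the cell cycle list was -0.017 in mouse 305 and 0.091 to 0.11 in the others.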

How the results depend on the processing

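Results were recomputed with 11 other settings fixed beforehand and 1 added after seeing the data, and without each of the 8 arrays in turn. Genes higher at day 20 than at day 0 numbered 949 without background correction, 140 with negative control spots as background, 0 with median centring (limma), 146 with scaling between arrays, 689 with the ratio from the scanner software, 1731 with the Cy5 channel alone, 116 with no filter on dim probes, 3 with only the 8 arrays of both days and 831 with the mouse block, and 17 to 1453 without 1 array. In the same settings lower genes numbered 1836 without background correction, 841 with negative control spots, 4 with median centring, 1274 with the scanner's log ratio, 2080 with Cy5 alone, 11 with only the 8 arrays and 636 with the mouse block, and 115 to 1233 without 1 array. Of the called genes 34.1%, 14.3%, 0%, 24.7%, 35.1% and 45.4% were higher in the first 6 settings, against 231 of 637 as reported, and 56.6% were with the mouse block. That block is the mouse as a term in the fit. With the mouse as a random block 325 genes were higher and 491 lower, so that 39.8% of the called genes were higher. Genes that differ between day 20 and day 15 numbered 846 without background correction, 2 with negative control spots, 0 with median centring (limma), 1856 with scaling, 1280 with the scanner's ratio, 2720 with Cy5 alone, 7 with no filter and 48 with the mouse block, and 2 to 1012 without 1 array. Between day 20 and day 10 they numbered 664 without background correction, 0 with negative control spots or median centring, 59 with scaling, 20 with the scanner's ratio, 2224 with Cy5 alone, 31 with the mouse as a block of either kind, and 0 to 119 without 1 array. Between day 25 and day 20 they numbered 1798 with negative control spots, 0 with median centring and 106 with scaling, and 2106 to 4663 without 1 array. The cause was not tested.

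Signs turned with median centring for Fbxl19 (-0.051), Olfr930 (-0.075), Pabpc2 (-0.11), Gstm5 (-0.0033), Aqp2 (-0.12), Slc22a8 (-0.057), Fcer2a (-0.40), Fbxo9 (-0.18), Ube2l6 (-0.24), Stfa3 (-0.071) and Cox7c (-0.12). They also turned for Map3k9 without background correction (-0.099), with negative control spots (-0.088) and with the scanner's ratio (-0.44), for Chrm1 with the scanner's ratio (-0.31) and Cy5 alone (-0.021), and for Tmem107 with Cy5 alone (-0.055). Relative to the shift of -0.26 in all genes the median-centred changes of S100a9 and S100a8 were -3.29 and -2.87. Of the 637 genes called, 14 higher and 108 lower ones stayed past the threshold without any 1 array, and 83 higher and 393 lower ones kept their sign in all settings. The slide could not be used as a block because each day lies on its own slide. Signal over background limits the dim genes, since on day 20 the median net Cy5 signal was at most 16.8.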
